A study of Mus musculus with 20 samples.

Results

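Complement and coagulation factors are the plasma proteins of a pair of protease cascades, and their genes were followed here in medullary thymic epithelial cells with and without Aire. The set was drawn up as 44 gene symbols covering recognition molecules, convertase components, terminal components and regulators of complement, and proteases, cofactors, anticoagulants and fibrinolytic factors of coagulation. Probe sets annotated to exactly 1 of these symbols were kept, and where a gene had several, the one with the highest mean log2 intensity over the 20 arrays was used. This gave 40 members among the 18193 genes measured in the series. C3, Cfd and Cpb2 had no probe set of a single symbol and the only probe set of C4b carried several symbols, so these 4 genes were not analysed here.

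Each array was hybridised with RNA of epithelial cells of the thymic medulla, sorted as CD45 negative, G8.8 positive, Ly51 intermediate and MHC class II high from 1 male mouse aged 3 to 4.5 weeks. The groups were Aire knockout (KO) and Aire wild-type (WT) mice on 3 inbred backgrounds: 3 KO and 3 WT mice in B6, 4 KO and 4 WT in BALB, and 3 KO and 3 WT in NOD. The labels give neither the Aire allele nor litter or sorting day, and they give 1 age range for all mice.

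Aire is a transcriptional regulator known for inducing genes of peripheral organs in these cells, liver genes among them. Most complement and coagulation factors are secreted by hepatocytes into plasma. In the complement cascade, recognition molecules such as C1q, mannose-binding lectins and ficolins start protease activation, convertases cleave the central components, terminal components form the membrane pore, and regulators such as factor I and C4b-binding protein shut the cascade down. In coagulation, tissue factor starts a chain of serine proteases that ends in thrombin and fibrin, cofactors speed single steps, anticoagulants stop them, and plasmin dissolves the clot. Several factors also have other cellular sources. C1q is made mainly by macrophages and dendritic cells, and von Willebrand factor by endothelial cells and megakaryocytes.

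Median intensity per array ran between 86.3 and 90.9. The Aire probe set itself averaged 11.53 ± 0.04 in KO and 10.73 ± 0.08 in WT mice of B6 (log2 intensity, SD, n = 3 each). It averaged 10.95 ± 0.29 in KO and 10.25 ± 0.64 in WT mice of BALB (n = 4 each), and 11.91 ± 0.12 in KO and 11.19 ± 0.24 in WT mice of NOD (n = 3 each). It was thus higher in mice labelled KO, by 0.74 ± 0.14 (SE, limma adjusted p = 0.00104), and since its position relative to the deleted part is not given here, it does not check the genotype labels. Markers listed for medullary epithelium were high on all arrays, with 11 of 12 measured. Their summed intensities were 40940 to 63970 in KO and 37194 to 61319 in WT mice. The list includes Cd80 and MHC class II genes (H2-Aa, H2-Ab1 and Cd74), so the sum alone does not measure epithelial identity or purity. Ptprc, which encodes the CD45 used to exclude haematopoietic cells, averaged 9.24 in KO and 9.75 in WT mice (log2 intensity, mean of strains, difference -0.51, adjusted p = 0.361). Both values lay well above the median of all probe sets (6.48). The 4 haematopoietic markers, Ptprc among them, had mean log2 intensities of 9.69 to 10.89 in KO and 9.77 to 11.11 in WT mice. For the medullary epithelium list these were 10.94 to 11.505 in KO and 10.97 to 11.44 in WT mice. Of the haematopoietic markers, 0 were called lower and 1 higher in KO. The difference between the Gapdh 3' and 5' control probe sets, a measure of RNA and amplification quality, was highest in B6 WT mouse 1 at 3.76 log2 units, followed by 3.04 in BALB WT mouse 4. It was lowest in B6 KO mice 2 and 3 and B6 WT mouse 2, at 1.68, 1.84 and 1.90, with 2.15 as the next value. Without B6 WT mouse 1, 17 members were called in the averaged contrast described below and 8 in B6. B6 KO mice 2 and 3 were also the most alike pair of arrays (r = 0.996 across probe sets, which are not independent replicates). Results are given with and without these arrays where they matter.

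Of the 40 members, 13 were lower in KO cells (32.5%) and 5 were higher (12.5%) in the KO minus WT difference averaged over the 3 strains, at an adjusted p under 0.05 by limma. Among all 45037 probe sets tested, 20.6% passed this test, 10.1% lower and 10.5% higher in KO. With 1 probe set per gene, chosen as for the members, 16.6% of genes were lower and 9.7% higher. The median difference of the members was -0.07 on the log2 scale, against 0.06 over all probe sets and 0.01 with 1 probe set per gene. Mbl2, Kng1, C4bp, F3 and Fcna fell by 2-fold or more, 5 of 40 members, against 2.14% of all probe sets. With 1 probe set per gene, 649 of 18193 genes fell by 2-fold or more and 109 rose by as much. No member rose by 2-fold, against 0.44% of all probe sets. By branch, 6 of 20 complement members were lower and 1 was higher, and 7 of 20 coagulation and fibrinolysis members were lower and 4 were higher. In sorted but unseparated cells, fewer cells that express a gene and less RNA per cell cannot be told apart. Without the 3 B6 arrays lowest in the Gapdh difference, 14 members were called, and the calls of C8g, F9, F8 and Plat were lost. That fit holds 1 B6 KO mouse, which is assumed to vary like the other groups.

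**Figure D1:**
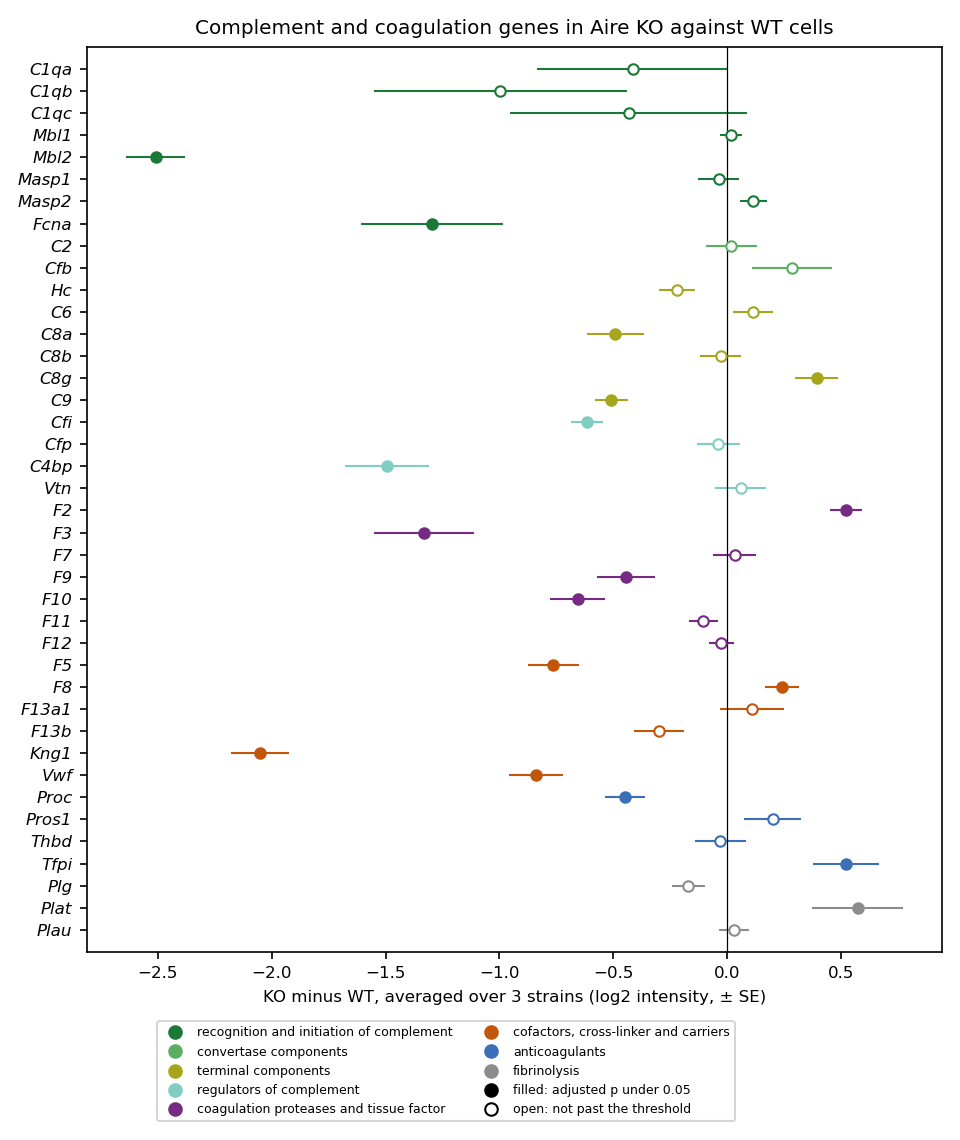
Difference between Aire KO and WT cells (log2 intensity, averaged over B6, BALB and NOD, ± SE) for each of the 40 members, ordered and coloured by role, filled where the limma adjusted p was under 0.05. Mbl2 (-2.51) and Kng1 (-2.05) lie farthest to the left, and Plat (0.57), Tfpi (0.52) and F2 (0.52) farthest to the right.

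Because Mbl2 and C4bp fell in every strain and F3 fell in the average, the RefSeq promoter windows of these genes (mouse assembly GRCm38.p6, 250 bases before to 50 after the transcript start that the table uses, 5′ to 3′ on the gene's strand) are shown, with that of Mbl1, the paralog of Mbl2, for comparison. For Mbl2 and C4bp that start lies inside the outermost annotated end of the gene, and positions below are counted from it. Capitals mark matches to the letters searched. The windows are chr19:30232678-30232977 (plus strand) for Mbl2, chr14:41151206-41151505 (plus strand) for Mbl1, chr1:130661569-130661868 (minus strand) for C4bp and chr3:121723287-121723586 (plus strand) for F3.
Mbl2: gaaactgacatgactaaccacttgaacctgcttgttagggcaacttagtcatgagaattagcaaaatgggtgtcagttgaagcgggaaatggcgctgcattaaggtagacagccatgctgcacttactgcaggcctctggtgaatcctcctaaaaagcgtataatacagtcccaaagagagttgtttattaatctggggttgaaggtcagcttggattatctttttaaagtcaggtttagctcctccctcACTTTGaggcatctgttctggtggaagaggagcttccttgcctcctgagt
Mbl1: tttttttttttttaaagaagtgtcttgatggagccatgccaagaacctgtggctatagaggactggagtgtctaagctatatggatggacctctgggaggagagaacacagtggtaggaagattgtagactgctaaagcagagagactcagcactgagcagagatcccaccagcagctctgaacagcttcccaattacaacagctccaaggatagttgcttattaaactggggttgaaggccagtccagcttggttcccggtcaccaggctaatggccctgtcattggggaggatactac
C4bp: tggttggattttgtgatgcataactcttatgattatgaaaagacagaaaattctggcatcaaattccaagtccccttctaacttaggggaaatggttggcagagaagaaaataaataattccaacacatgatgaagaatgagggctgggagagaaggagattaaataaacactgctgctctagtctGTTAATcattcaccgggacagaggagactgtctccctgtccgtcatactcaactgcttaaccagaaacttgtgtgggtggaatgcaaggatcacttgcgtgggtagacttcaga
F3: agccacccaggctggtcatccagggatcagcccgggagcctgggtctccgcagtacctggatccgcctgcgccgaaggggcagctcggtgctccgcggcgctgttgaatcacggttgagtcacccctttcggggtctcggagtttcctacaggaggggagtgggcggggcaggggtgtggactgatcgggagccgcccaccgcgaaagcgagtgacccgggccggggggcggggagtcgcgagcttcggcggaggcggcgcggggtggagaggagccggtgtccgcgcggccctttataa
The letters searched were those of liver factors and of the TATA box: GTTAAT (HNF1 half-site) and CAAAGT (HNF4 element) on both strands, TTGCNNAA (C/EBP element) on both strands, and TATAAA on the gene's strand. The Mbl2 window held the CAAAGT letters on the opposite strand with their first base at position 1 from the start. In the C4bp window GTTAAT lay at position -64. The Mbl1 and F3 windows held none of the 4. The F3 window ends in the letters tataa, so a TATAAA match running past its edge could not be seen. F3 had 70.3% G and C in its window, against 45.3% for Mbl2, 48% for Mbl1 and 42% for C4bp. Of the 40 members, 28 had a window in the table. Members were scored per gene, by a match in any window of the gene, whereas the shares of all promoters are per window. GTTAAT was in 8 of these 28 (28.6%) and in 7.10% of all 32851 promoter windows, and CAAAGT was in 8 of 28 (28.6%) and in 14.4% of all. GTTAAT was found in 2 members that fell (C8a and C4bp), in 1 that rose (F2) and in 5 members that were not called (Hc, C8b, Cfp, Vtn and F13b). TTGCNNAA was in 3 of 28 (10.7%) and 10.8% of all, and TATAAA in 2 of 28 (7.14%) and 8.32% of all. A match is a description of the letters and not evidence of binding.

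Among the recognition molecules of complement, Mbl2 and Fcna fell, and the other 6 of 8 were not called. Mbl2 encodes mannose-binding lectin C, a plasma lectin that binds microbial sugars and activates complement through the MASP proteases. Mbl2 read 7.08, 7.13 and 6.97 in B6 KO mice, against 9.71, 9.06 and 10.13 in B6 WT mice. BALB KO mice had 6.52, 6.78, 6.94 and 6.71, against 9.31, 9.33, 9.49 and 8.69 in BALB WT mice. NOD KO mice had 7.13, 7.14 and 7.14, against 10.05, 9.31 and 9.51 in NOD WT mice (all log2 intensity). Every KO mouse was below every WT mouse of its strain, and the KO values of a strain lay much closer together than the WT values. The averaged difference was -2.51 ± 0.13 (SE, 5.69-fold lower, limma adjusted p = 1.97e-10), with -2.57 in B6, -2.47 in BALB and -2.49 in NOD. Among sets of mice of the same strain and the same run of sample codes, which the labels carry without stating their meaning, the difference was between -2.92 and -2.27 in 5 of 5 sets. Mbl1, the second mouse mannose-binding lectin, differed by 0.02 ± 0.05 (adjusted p = 0.84), and its values in all 20 mice ran between 5.999 and 6.39.

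Fcna encodes ficolin A, a lectin that in the mouse is made in liver and by macrophages. Fcna read 6.77, 7.74 and 7.15 in B6 KO mice, against 8.71, 8.54 and 8.86 in B6 WT mice. In BALB, KO mice had 7.10, 6.56, 6.78 and 7.97 and WT mice 8.28, 8.20, 7.93 and 8.20. In NOD, KO mice had 6.70, 7.11 and 9.18 and WT mice 7.94, 8.73 and 10.37. The genotypes did not overlap in B6, whereas BALB KO mouse 4 and NOD KO mouse 3 reached into the WT range. Fcna fell by 1.30 ± 0.31 on the averaged log2 scale (2.46-fold, limma adjusted p = 0.00618). It was not called within any strain (adjusted p = 0.126 in B6, 0.252 in BALB and 0.277 in NOD), but with same-numbered KO and WT mice of BALB and NOD taken as pairs it was called in both (adjusted p = 0.00722 in BALB and 0.00476 in NOD).

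C1qa, C1qb and C1qc encode the chains of C1q, the recognition unit of the classical pathway. C1qb read 7.85, 7.33 and 7.21 in B6 KO mice, against 9.40, 8.27 and 9.996 in B6 WT mice. BALB values were 9.17, 8.98, 7.01 and 10.64 in KO mice and 9.50, 8.92, 8.57 and 10.22 in WT mice. NOD values were 7.29, 9.67 and 11.58 in KO mice and 8.53, 10.34 and 12.30 in WT mice. Mouse-to-mouse spread exceeded the genotype difference in BALB and NOD. The averaged differences were -0.995 ± 0.55 for C1qb (adjusted p = 0.213), -0.41 ± 0.42 for C1qa (adjusted p = 0.505) and -0.43 ± 0.52 for C1qc (adjusted p = 0.58), none called. With the BALB and NOD pairs as blocks, all 3 were called lower by limma, at adjusted p = 0.00507 for C1qb, 0.0244 for C1qa and 0.0219 for C1qc.

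In each BALB and NOD group, the mouse with the highest mean log2 intensity of the macrophage markers also had the highest C1qa, C1qb and C1qc. This did not hold for C1qb in B6. There KO mouse 2 and WT mouse 2 had the highest marker means of their groups (7.97 and 8.36), with C1qb at 7.33 and 8.27. All 15 markers of the list were measured, 4 were lower in KO (Adgre1, Cd14, Cd163 and Marco) and none was higher, and their summed intensity ranged over 4630 to 13161 in KO and 6016 to 19693 in WT mice. NOD WT mouse 3 had the highest sum and the highest value of C1qa, C1qb, C1qc and Fcna. Marco, a macrophage scavenger receptor, differed by -1.70 ± 0.18 and Cd14 by -1.45 ± 0.14. With the mean of the macrophage and dendritic cell markers as a covariate, the averaged differences became 0.00 for C1qb (adjusted p = 0.997), 0.42 for C1qa (0.105) and 0.62 for C1qc (0.0331), and -0.72 for Fcna (0.0105). Mbl2 differed by -2.61 with the covariate. The calls of F9, F8 and Plat were lost with it, at -0.33 for F9 (adjusted p = 0.104), 0.26 for F8 (0.0519) and 0.39 for Plat (0.212). Since 4 of the macrophage markers were themselves lower in KO, the fit with the covariate cannot separate genotype from these markers. The cellular source of the C1q and Fcna RNA was not tested.

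**Figure D2:**
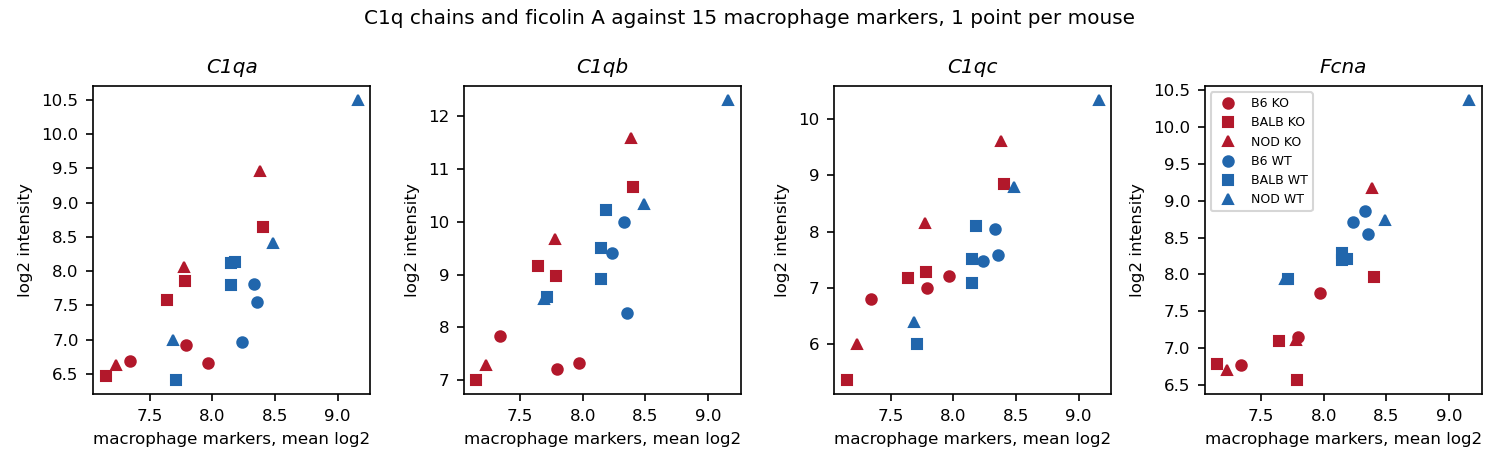
Log2 intensity of C1qa, C1qb, C1qc and Fcna (vertical axes) against the mean log2 intensity of 15 macrophage markers (horizontal axes), 1 point per mouse, red for KO and blue for WT, with a symbol for each strain. NOD WT mouse 3 is at the top right of every panel, and for Fcna the KO points lie low, at 6.56 to 7.97 apart from NOD KO mouse 3 at 9.18.

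The MASP proteases cleave the next components after lectin binding. Masp1 differed by -0.04 ± 0.09 (limma adjusted p = 0.792) and Masp2 by 0.12 ± 0.06 (adjusted p = 0.182). The other probe sets of Masp1, 4 in number, ran between -0.11 and 0.14 and none was called. The convertase components C2 and Cfb were not called either, at 0.02 ± 0.11 (adjusted p = 0.921) and 0.28 ± 0.18 (adjusted p = 0.261). C2 and Cfb are neighbouring genes on chromosome 17. In NOD all 3 KO mice were above all WT mice for both, with 8.93, 8.80 and 8.48 for Cfb in KO mice against 8.38, 8.34 and 7.96 in WT mice, an order found for 14.4% of all probe sets in NOD. The other C2 probe sets differed by -0.06 and -0.12 on average (limma adjusted p = 0.737 and 0.544). The first of them kept that order in NOD, and in the second the NOD genotypes overlapped.

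Terminal components are assembled into the membrane attack complex. C9, which forms the pore wall, and C8a, the alpha chain of C8, fell, C8g, the gamma chain of C8, rose, and Hc (the mouse gene of C5), C6 and C8b were not called. C9 read 5.79, 5.71 and 5.37 in B6 KO mice, against 6.44, 6.14 and 6.43 in B6 WT mice, with every KO mouse below every WT mouse in BALB and NOD too. Its averaged difference was -0.51 ± 0.07 (limma adjusted p = 5.89e-05). C8a differed by -0.49 ± 0.12 (adjusted p = 0.00835) and C8g by 0.39 ± 0.09 (adjusted p = 0.00588). C8a and C8b, which encodes the beta chain, are neighbours on chromosome 4 with no protein-coding gene between them, and C8b differed by -0.03 ± 0.09 (adjusted p = 0.846). Hc differed by -0.22 ± 0.08 (adjusted p = 0.056).

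The complement regulators Cfi and C4bp fell and Cfp and Vtn were not called. Cfi encodes factor I, the protease that inactivates C3b and C4b. Cfi read 8.09, 7.76 and 7.80 in B6 KO mice, against 8.83, 8.84 and 8.78 in B6 WT mice. BALB KO mice had 8.01, 8.03, 7.88 and 7.94, against 8.62, 9.0002, 8.75 and 8.35 in BALB WT mice. NOD KO mice had 6.94, 6.88 and 6.92, against 7.03, 7.12 and 7.19 in NOD WT mice. The genotypes were separate in each strain, but NOD mice of both genotypes were below all other mice. The averaged difference was -0.62 ± 0.07 (1.53-fold lower, limma adjusted p = 4.03e-06), with -0.93 ± 0.13 in B6, -0.72 ± 0.11 in BALB and -0.20 ± 0.13 in NOD, where it was not called (adjusted p = 0.577).

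C4bp encodes C4b-binding protein, a cofactor for factor I that also dissociates the classical convertase. C4bp read 5.12, 6.29 and 6.06 in B6 KO mice, against 7.55, 8.36 and 7.84 in B6 WT mice. In BALB, KO mice had 5.56, 6.18, 5.97 and 6.82 and WT mice 6.97, 6.67, 7.23 and 7.83. In NOD, KO mice had 5.37, 5.32 and 4.93 and WT mice 6.46, 6.67 and 6.53. Only BALB KO mouse 4 overlapped the WT mice of its strain. C4bp fell by 1.49 ± 0.18 on the averaged log2 scale (2.81-fold, limma adjusted p = 9.56e-06), and by 2.09 in B6 (adjusted p = 0.000383), 1.04 in BALB (0.0355) and 1.34 in NOD (0.0246). The BALB and NOD calls were near the threshold and were lost in several alternatives, among them the leaving out of BALB KO mouse 1, 2 or 3, of BALB WT mouse 1, 3 or 4, or of any NOD mouse except WT mouse 1. Cfp, encoding properdin, differed by -0.04 (adjusted p = 0.802) and Vtn, encoding vitronectin, by 0.06 (adjusted p = 0.73).

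Among tissue factor and the coagulation proteases, F3, F10 and F9 fell, F2 rose, and F7, F11 and F12 were not called. F3 encodes tissue factor, the membrane protein that starts coagulation by binding factor VII. F3 read 4.58, 5.42 and 4.79 in B6 KO mice, against 6.62, 6.94 and 6.77 in B6 WT mice. BALB KO mice had 5.33, 5.78, 6.13 and 6.60, against 6.22, 6.99, 6.61 and 8.17 in BALB WT mice. NOD KO mice had 4.57, 4.57 and 5.46, against 5.92, 5.83 and 6.198 in NOD WT mice. The genotypes were separate in B6 and NOD and overlapped in BALB. The averaged difference was -1.33 ± 0.22 (2.52-fold lower, limma adjusted p = 0.000223), with -1.85 in B6 (adjusted p = 0.00519), -1.04 in BALB (0.0863) and -1.12 in NOD (0.162). With the BALB and NOD pairs as blocks, F3 was called in both strains (adjusted p = 0.00393 in BALB and 0.00819 in NOD).

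F2, which encodes prothrombin, was higher in KO cells of every strain. F2 read 8.58, 8.75 and 8.76 in B6 KO mice, against 8.36, 8.35 and 8.44 in B6 WT mice. In BALB, KO mice had 8.40, 8.41, 8.15 and 8.38 and WT mice 8.05, 7.96, 7.91 and 7.76. In NOD, KO mice had 9.10, 8.79 and 8.63 and WT mice 8.22, 7.85 and 7.93. All 10 KO mice were above all WT mice of their strain, a pattern shown by 1.37% of all probe sets. F2 rose by 0.52 ± 0.07 on the averaged log2 scale (1.44-fold, limma adjusted p = 2.71e-05). It was called in BALB (0.41, adjusted p = 0.0289) and NOD (0.84, adjusted p = 0.000413), and read 0.31 in B6 (adjusted p = 0.161).

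F10 encodes factor X, which as its active form cleaves prothrombin. F10 differed by -0.66 ± 0.12 on average (1.58-fold lower, limma adjusted p = 0.000665) and by -1.03 ± 0.22 in B6 (adjusted p = 0.00469). Both other F10 probe sets differed by 0.01 and 0.04 (adjusted p = 0.979 and 0.702), so the F10 result rests on 1 of 3 probe sets. These others averaged 4.26 and 5.25 in WT mice (log2 intensity, mean of strains), against 7.69 for the probe set used. Both lay below the median of all probe sets (6.48), where a fall may be understated. F7, encoding the factor VII that binds tissue factor, is the direct neighbour of F10 on chromosome 8, and it differed by 0.03 ± 0.09 (adjusted p = 0.822). F9, encoding factor IX, differed by -0.45 ± 0.13 (adjusted p = 0.0191), a call lost with the macrophage and dendritic cell marker covariate (-0.33, adjusted p = 0.104) and without the 3 B6 arrays lowest in the Gapdh difference. The contact-pathway proteases F11 and F12 differed by -0.11 and -0.02 (adjusted p = 0.253 and 0.768).

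Kng1, Vwf and F5 fell among the cofactors and carriers, F8 rose, and F13a1 and F13b, the chains of the fibrin cross-linking factor XIII, were not called. Kng1 encodes kininogen, a cofactor of the contact system and the source of bradykinin. Kng1 read 4.98, 5.35 and 5.02 in B6 KO mice, against 7.75, 7.40 and 8.01 in B6 WT mice. BALB KO mice had 4.40, 5.53, 4.98 and 4.96, against 7.19, 7.64, 7.47 and 6.98 in BALB WT mice. NOD KO mice had 5.81, 6.03 and 5.65, against 6.89, 6.97 and 7.21 in NOD WT mice. The genotypes were far apart in every strain, and NOD KO mice were above all other KO mice. The averaged difference was -2.05 ± 0.13 (4.14-fold lower, limma adjusted p = 1.72e-09). A second Kng1 probe set differed by -0.56 ± 0.09 (adjusted p = 0.000226), so the sign was shared and the size was not. The mouse has a close kininogen paralog, and cross-hybridisation between them was not tested.

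**Figure D3:**
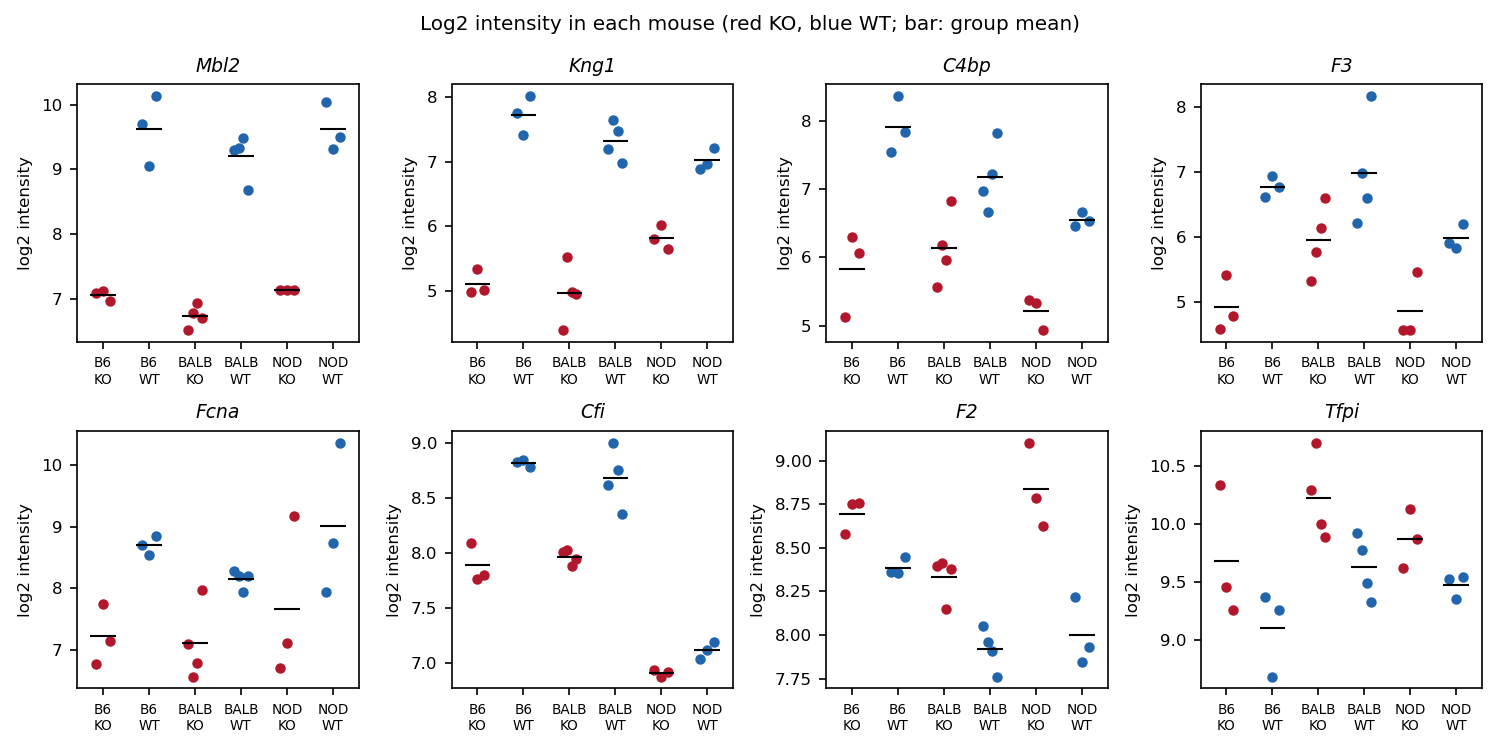
Log2 intensity in each mouse for 8 members (red KO, blue WT, bar: group mean), with KO left of WT in each strain. Mbl2, Kng1 and Cfi show no overlap of KO and WT mice in any strain, and F2 shows the opposite order, with every KO mouse above the WT mice of its strain.

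Vwf encodes von Willebrand factor, which carries factor VIII and binds platelets. Vwf read 6.79, 7.05 and 7.27 in B6 KO mice, against 6.97, 7.15 and 7.05 in B6 WT mice. BALB KO mice had 5.14, 5.05, 4.63 and 5.11, against 6.23, 6.49, 6.44 and 5.40 in BALB WT mice. NOD KO mice had 5.005, 4.85 and 5.01, against 6.16, 6.28 and 6.45 in NOD WT mice. The genotypes overlapped in B6 and were separate in BALB and NOD. The averaged difference was -0.84 ± 0.12 (limma adjusted p = 5.09e-05), made up of -0.02 ± 0.22 in B6, -1.16 ± 0.19 in BALB and -1.34 ± 0.22 in NOD. Among 10 endothelial markers, all measured, Plvap was lower (-0.83) and Pecam1 higher (0.21). Their sums were 1139 to 1419 in KO and 1017 to 1209 in WT mice of B6. They were 1033 to 1168 and 974 to 1220 in BALB, and 948 to 1029 and 1024 to 1167 in NOD. Of 5 platelet and megakaryocyte markers measured, 3 were lower (Ppbp, Pf4 and Itga2b at -2.79, -1.42 and -0.16). Sums of these 5 were 467 to 503 in KO and 831 to 1270 in WT mice of B6, where Vwf differed by -0.02. They were 494 to 612 and 920 to 1287 in BALB, and 512 to 863 and 1142 to 1492 in NOD. The part of both marker lists in the Vwf values was not tested.

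F5 encodes the cofactor of factor X, and F8 that of factor IX. F5 differed by -0.76 ± 0.11 (1.7-fold lower, limma adjusted p = 6.47e-05) and by -0.68 in its other probe set (adjusted p = 0.00059). Within strains it differed by -1.13 in B6 (adjusted p = 0.00107), -0.77 in BALB (0.00983) and -0.38 in NOD (0.452). F8 differed by 0.24 ± 0.08 on average (adjusted p = 0.0309). Within strains it differed by -0.05 in B6, 0.56 ± 0.12 in BALB (adjusted p = 0.00591) and 0.22 in NOD, and only BALB was called. The F8 call was lost in 9 of 35 alternatives, among them leaving out B6 WT mouse 3, B6 KO mouse 3, NOD WT mouse 2 or 3, or NOD KO mouse 1 or 2. F13b and F13a1 differed by -0.30 and 0.11 (adjusted p = 0.0626 and 0.608), and with the BALB and NOD pairs as blocks F13b was called (limma adjusted p = 0.0399).

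The anticoagulants went different ways. Proc, encoding protein C, which cleaves the cofactors of coagulation, fell by 0.45 ± 0.09 on the averaged log2 scale (limma adjusted p = 0.000935), and all 10 KO mice were below all WT mice of their strain. Tfpi, encoding the inhibitor of the tissue factor complex, rose by 0.52 ± 0.14 (adjusted p = 0.0153). Its levels were 10.33, 9.46 and 9.26 in B6 KO mice against 9.37, 8.69 and 9.26 in B6 WT mice, so that B6 genotypes overlapped. The other 3 Tfpi probe sets rose as well, by 1.20, 0.63 and 0.96 (adjusted p = 2.05e-08, 0.00305 and 1.11e-05). Thbd, encoding thrombomodulin, differed by -0.03 (adjusted p = 0.871), and Pros1, encoding the cofactor of protein C, by 0.20 (adjusted p = 0.267).

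Of the fibrinolytic genes, Plat, encoding tissue plasminogen activator, was higher and Plg and Plau were not called. Plat read 10.38, 10.30, 10.89 and 10.58 in BALB KO mice, against 9.07, 9.26, 9.89 and 9.24 in BALB WT mice, with no overlap. In B6 it read 7.83, 9.16 and 8.93 in KO mice and 8.31, 9.28 and 8.97 in WT mice, an overlap. The averaged difference was 0.57 ± 0.20 (limma adjusted p = 0.0498), just past the threshold, and it was called in 15 of 35 alternatives. It was lost without B6 WT mouse 1 or 3, B6 KO mouse 2 or 3, any BALB mouse except WT mouse 3, NOD WT mouse 2 or 3, or NOD KO mouse 1 or 2. A second Plat probe set differed by 0.32 ± 0.08 (adjusted p = 0.0119). Plg, encoding plasminogen, differed by -0.17 (adjusted p = 0.108) and Plau, encoding urokinase, by 0.03 (adjusted p = 0.787).

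Within strains, 8 members were called in B6, all lower (8.62% of all probe sets called, 5.54% lower and 3.08% higher). BALB had 10 called members, 7 lower and 3 higher (6.84% of all probe sets called, 4.26% lower and 2.57% higher). NOD had 5, of which 4 were lower and 1 higher (4.23% of all probe sets called, 2.81% lower and 1.42% higher). With 1 probe set per gene, chosen as for the members, 1686 of 18193 genes were lower and 580 higher in B6. The same counts were 1360 and 525 in BALB, and 855 and 342 in NOD. Mbl2, C4bp and Kng1 were called in each strain. B6 added C9, Cfi, F3, F10 and F5, BALB added Cfi, F5, Vwf and Proc with F2, F8 and Plat higher, and NOD added Vwf with F2 higher. The B6 count was 5 without the 3 B6 arrays lowest in the Gapdh difference, a contrast of 1 KO with 2 WT mice whose spread comes from the other groups. The NOD count was 9 with the BALB and NOD pairs as blocks. Without BALB KO mouse 1 the BALB count was 6. Mbl2, C9, Cfi, Kng1 and Proc had all 10 KO mice below all WT mice of their strain, 5 of 40 members, against 3.17% of all probe sets.

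A different size of the Aire effect between strains was tested with an F test on the strain differences of KO minus WT. No member passed after adjustment by limma, while 7 of 40 had an unadjusted p under 0.05 (Cfi, F2, F8, Kng1, Vwf, Pros1 and Plat), against 2308 of all 45037 probe sets. After adjustment 0.435% of all probe sets were called. Kng1 differed by -2.61 in B6, -2.35 in BALB and -1.19 in NOD (limma F test, adjusted p = 0.113). With the BALB and NOD pairs as blocks, the Kng1 strain difference was called at adjusted p = 0.0384, as it was without BALB KO mouse 2. The Vwf pattern gave a limma adjusted p = 0.11, and it was called without BALB WT mouse 4. Plat differed by -0.21 in B6, 1.17 in BALB and 0.75 in NOD (adjusted p = 0.808), and F2 by 0.31, 0.41 and 0.84 in the same order of strains (adjusted p = 0.652).

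**Figure D4:**
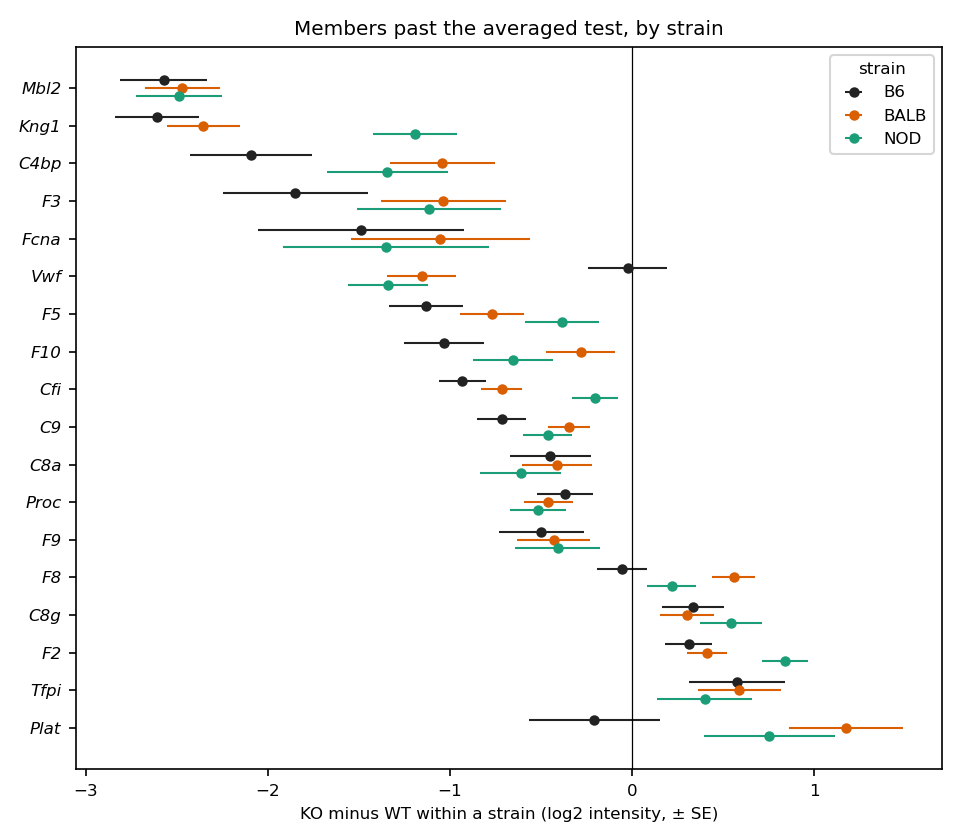
KO minus WT difference (log2 intensity, ± SE) of the 18 called members in each strain, ordered by the averaged difference. The 3 strains lie together for Mbl2 (-2.57 to -2.47) and apart for Kng1 (-2.61 to -1.19) and Vwf (-1.34 to -0.02).

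Members also differed between the strains. Among WT mice 10 of 40 members passed the F test between strains (11.3% of all probe sets): Hc, C8g, C9, Cfi, C4bp, F2, F10, F8, F13b and Vwf. With 1 probe set per gene, 2577 of 18193 genes passed this test. Cfi and C4bp were lowest in NOD and spanned 1 log2 unit or more, 2 of 40 members against 4.33% of all probe sets. Cfi differed by -1.70 ± 0.13 between NOD and B6 WT mice (limma adjusted p = 1.1e-07) and by -1.57 ± 0.12 between NOD and BALB WT mice (adjusted p = 1.72e-07), and this call was kept in 33 of 33 alternatives. Among KO mice Cfi differed by -0.98 ± 0.13 between NOD and B6 and by -1.05 ± 0.12 between NOD and BALB. C4bp differed by -1.36 ± 0.33 between NOD and B6 WT mice (adjusted p = 0.0167). C8g differed by -0.93 ± 0.17 between NOD and B6 WT mice (adjusted p = 0.00205). The WT count was 5 without B6 WT mouse 1 or 2, 4 without B6 WT mouse 3, and 6 without BALB WT mouse 4 or NOD WT mouse 2. With the run of sample codes as a fixed block 3 members were called (Cfi, F5 and Plat), and as a random block 2 (Cfi and C8g).

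Among KO mice 8 of 40 members differed between strains (17.9% of all probe sets): C2, C8g, Cfi, F2, F5, Kng1, Vwf and Plat. With 1 probe set per gene, 3942 of 18193 genes differed, a slightly larger share than among the members. Vwf differed by -2.05 ± 0.20 between BALB and B6 KO mice (limma adjusted p = 3.11e-06) and by -2.08 ± 0.22 between NOD and B6 KO mice (adjusted p = 4.79e-06). Plat differed the other way, by 1.90 ± 0.34 between BALB and B6 (adjusted p = 0.00138) and by 2.22 ± 0.36 between NOD and B6 (adjusted p = 0.000564). Strain order is thus opposite for these genes, with B6 KO mice highest in Vwf and lowest in Plat. Kng1 was higher in NOD than in BALB KO mice by 0.86 ± 0.22 (adjusted p = 0.0164), and F5 by 0.89 ± 0.19 (adjusted p = 0.00506).

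**Figure D5:**
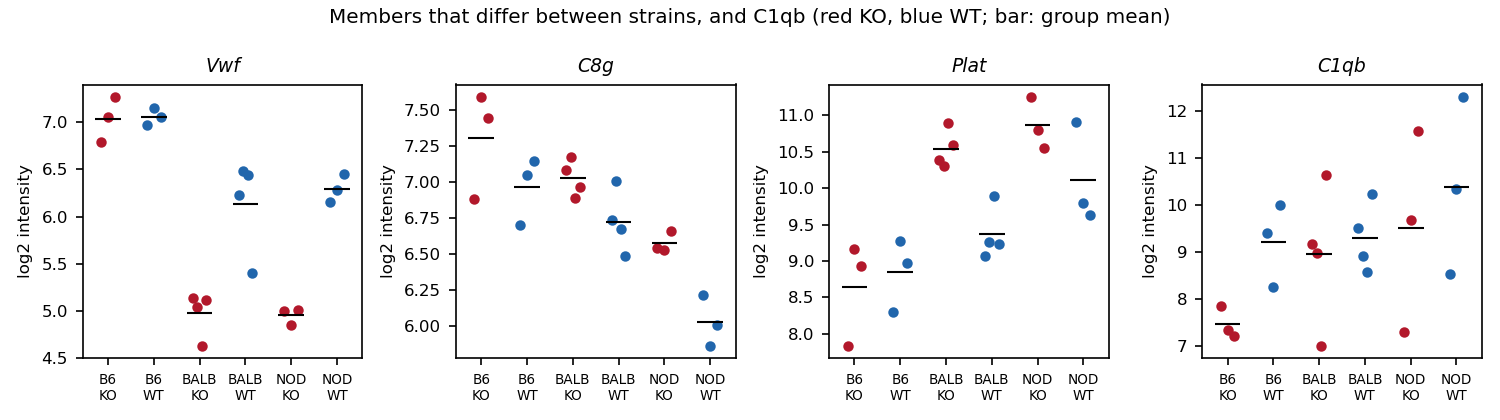
Log2 intensity in each mouse for Vwf, C8g, Plat and C1qb (red KO, blue WT, bar: group mean), with KO left of WT in each strain. BALB and NOD KO mice sit between 4.63 and 5.14 for Vwf while B6 KO mice sit between 6.79 and 7.27, and C1qb spreads over 7.01 to 10.64 in BALB KO mice and 7.29 to 11.58 in NOD KO mice.

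Other genes of the same pathways were listed separately, 66 symbols of which 56 were measured. Of these, 21 were lower and 7 higher in KO cells in the averaged contrast, with a median difference of -0.09. With 1 probe set per gene, 16.6% of all genes were lower and 9.7% higher, with a median of 0.01. The same shares are the background for the marker list counts given below and in earlier paragraphs. The largest falls were those of the fibrinogen chains Fgg, Fgb and Fga, the substrate of thrombin, at -3.99 ± 0.14, -3.28 ± 0.17 and -1.72 ± 0.19. The largest rises were Cr2, the complement receptor known from B cells, at 1.44 ± 0.16, Colec12, a scavenger collectin, at 1.11 ± 0.14, and Bdkrb1, a kinin receptor, at 0.74 ± 0.12. Of the hepatocyte markers 7 of 8 were measured and 4 were lower (Apoa1, Alb, Cps1 and Ttr, by -2.01, -1.49, -1.36 and -0.68), with sums of 612 to 1882 in KO and 1144 to 3102 in WT mice. In the remaining marker lists, the calls lower and higher were 2 and 2 of 11 for medullary epithelium, 0 and 2 of 7 for dendritic cells, 4 and 3 of 7 for fibroblasts and 2 and 0 of 7 for thymocytes. They were 0 and 2 of 5 for B cells, 0 and 1 of 4 for haematopoietic cells and 1 and 2 of 6 for cortical epithelium. Apart from the dendritic cell markers, which entered the covariate with the macrophage markers, the part of these lists and of the hepatocyte markers in the members' values was not tested.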

How the data were processed

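Expression was measured in sorted medullary thymic epithelial cells of 20 mice. Per the labels' protocols, RNA was isolated with Trizol and amplified before biotin labelling, which can favour 3' ends. The deposited table holds 1 linear intensity per probe set and array, and these intensities were made by the authors with RMA, per the submitters' processing notes. Its settings, and which arrays were normalised together, are not stated, and no detection calls were used.

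Groups came from the sample titles. After removal of 64 control probe sets from 45101, log2 intensities of 45037 probe sets entered 1 limma fit (version 3.58.1, R 4.3.3, functions lmFit and eBayes, 6 group means, 14 residual degrees of freedom, Benjamini-Hochberg over all probe sets, threshold 0.05). The array annotation named 34945 probe sets with 1 symbol, 932 with several, and did not list 9160. The members and lists were chosen with earlier results of these data known. Values in every array were given for members past the averaged test with a difference of 1 or more, past the strain difference test, or past the WT strain test with a span of 1 or more (Mbl2, Fcna, Cfi, C4bp, F3 and Kng1). C1qb, F2 and Vwf were shown in full after their values were seen. Other pathway genes were named by the 3 largest falls and rises.

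Replicate numbers were checked as pairs through the correlation of deviations from group means. Same-numbered KO and WT mice correlated at 0.46 to 0.66 in BALB and 0.31 to 0.67 in NOD and count as pairs by the rule used. In B6 the 3 same-numbered pairs had r = 0.78, 0.72 and -0.13, and B6 was not counted as paired. The reported fit has no pairing, and a block for the BALB and NOD pairs alone was added after seeing the data, with its values given where it changes a call. Other alternatives covered scaling, pseudocount, dim probe sets, variance model, array weights, blocks, covariates, probe set choice and leaving out arrays. The code was tested on simulated data. P-values measure the spread between individual mice, whose litters are not given. The number of arrays limits the precision.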

Additional observations from a re-analysis of the deposited data

Results flagged for a closer look

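In 80 groups of 4 BALB mice, 6 members had 1 mouse far from the other 3 (gap over range above Dixon's critical value), and chance gives about 1 in 20. The distant values were 7.19 for C6 in BALB KO mouse 1, 8.15 for F2 and 4.05 for F11 in BALB KO mouse 3, and 5.18 for F5 and 5.18 for Thbd in BALB KO mouse 4. In BALB WT mouse 2 the distant value was 7.85 for Pros1 (all log2 intensity).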

How the results depend on the processing

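All counts are of members called. The share of all probe sets called under each alternative is not given, here or in the paragraphs above. A changed count therefore does not show whether the members moved apart from the rest of the array. Leaving out dim probe sets, which removes 19 of 40 members, gave 9 in the average, 3 in B6, 5 in BALB, 2 in NOD, 5 between WT strains and 5 between KO strains. Array weights gave 17 in B6, 15 in NOD, 4 for the strain difference of the Aire effect and 22 between KO strains. The replicate block in all strains, where B6 numbers are not shown to be pairs, gave 25 in the average, 20 in B6, 18 in BALB, 14 in NOD and 5 for the strain difference. With the replicate block in BALB and NOD alone, chosen after seeing the data, there were 22 in the average (adding C1qa, C1qb, C1qc and F13b), 9 in NOD and 1 for the strain difference. No replicate block could give the comparisons between strains of 1 genotype, since pairs lie within strains. Code run as a fixed block gave 9 in NOD and 3 between WT strains, and as a random block 8 and 2. Fitting NOD arrays alone gave 8. Without the 3 B6 arrays lowest in the Gapdh 3'/5' difference there were 5 in B6, where 1 KO mouse was left and the spread came from the other groups, and 5 between WT strains. The causes were not tested. Leaving out 1 mouse at a time gave 16 to 19 in the average, 8 to 9 in B6, 6 to 10 in BALB, 4 to 6 in NOD, 0 to 1 for the strain difference, 4 to 11 between WT strains and 6 to 11 between KO strains. Of 632 values of Mbl2, Fcna, Cfi, C4bp, F3 and Kng1 under an alternative, 616 kept sign and side of the threshold, 0 changed sign and 16 lost the call, 14 of them C4bp. Without the 3 B6 arrays Cfi and F3 lost the B6 call at differences of -0.71 and -2.11 (limma adjusted p = 0.0692 and 0.0904), against -0.93 and -1.85 with them. Without detection calls, 19 of 40 members lay below the median of all probe sets (6.48 log2), where folds may be understated.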

Other observations

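The median SD between mice of a group was 0.20 over the members against 0.15 over all probe sets in B6 KO mice and 0.21 against 0.18 in B6 WT mice. It was 0.23 against 0.18 in BALB KO mice, 0.27 against 0.20 in BALB WT mice, 0.21 against 0.13 in NOD KO mice and 0.15 against 0.13 in NOD WT mice (log2 intensity, no test made).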
